A study of Arabidopsis thaliana with 18 samples.

Results

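Aboveground parts of Arabidopsis seedlings whose roots had met the endophytic fungus Serendipita indica (Si) were compared with those of uninoculated control seedlings (CK) at 22°C, the standard growth temperature of the series. The comparison takes 6 of the 18 samples, 3 Si and 3 CK, and the 20044 of 33039 genes that reached at least 1 TPM in at least 3 of the 18 samples. All seedlings were wild type (Col-0), were grown on MS medium with sucrose at 22°C, and were 9 days old when they were moved to plates of PNM, a medium low in nutrients; Si seedlings met the fungus there and CK seedlings served as the control. Si seedlings at 22°C and CK seedlings at 22°C then stayed at that temperature for 7 days. Si and CK seedlings kept at 25 or 28°C for the same time, 3 samples each, carry labels that differ from these in temperature and are used here to set the effect at 22°C against the effect when it was warmer. The labels call the samples biological replicates and do not say how many seedlings went into each. RNA came from whole shoots, in which fewer cells of a type and less RNA per cell cannot be told apart.

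S. indica is a root-colonising fungus of the Sebacinales that grows into the outer root cells and promotes growth of many host plants. The shoot is not the organ it colonises and is reached by signals and nutrients that travel up from the root. Jasmonic acid (JA) is a hormone of wounding, defence, and symbiosis. It is made in leaves from plastid fatty acids, and its isoleucine conjugate binds the receptor COI1, which sends the JAZ repressors to degradation and so frees transcription factors such as MYC2. The JAZ genes are themselves targets of MYC2, so their transcripts mark an active pathway. Ethylene (ET) acts together with JA on the ERF branch, which ends in defensins, whereas salicylic acid (SA) drives a separate branch that ends in PR proteins. MYC2 and its relatives also act on the genes for glucosinolates, the sulfur-rich defence compounds of the cabbage family.

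Inoculation moved the shoot transcriptome broadly. In Si, 1603 genes rose (8.0% of the genes tested) and 268 fell (1.34%), together 1871 genes (9.33%), where a call required a limma p that was 0.05 or less after adjustment and a change of more than 1 on the scale of log2(TPM + 1). All 3 Si values lay above all 3 CK values in 1584 of the called rises, against 49.3% of all genes tested, and all 3 lay below in 261 of the called falls, against 11.4%. Groups without overlap are thus the usual case for a called gene and do not set a single gene apart. Just inside the fold threshold stood AT4G35160 and bHLH093, with log2 fold changes of 1.0003 each, and just outside it AT5G17160 at 0.9999 and AT4G37180 at -0.9999. Such genes changed sides with single libraries: AT4G35160 was at 0.98 without CK replicate 3, bHLH093 at 0.81 without CK replicate 2, AT5G17160 at 1.13 without CK replicate 1, and AT4G37180 at -1.15 without Si replicate 3, among other libraries.

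The libraries differed in composition as well as in single genes. Si samples had 18614 ± 143 genes at 1 TPM or more and CK samples 17628 ± 117 (SD, n = 3 each; exact two-sided permutation p = 0.1, the smallest that 3 against 3 allows). The 200 genes most abundant in CK took 31.7 ± 0.354% of all TPM in Si and 39.5 ± 0.331% in CK (exact permutation p = 0.1 again). TPM values of a sample share a fixed sum. The log2 fold changes of the genes tested had a median of 0.26 as deposited, 0.01 after median-of-ratios scaling, and -0.03 after quantile normalization, and changes on the deposited scale are to be read against 0.26. Rises made up 85.7% of the calls as deposited, 66.3% after median-of-ratios scaling, and 62.3% after quantile normalization. Correlations of log2 values within a group were 0.975 to 0.982. Si replicate 2 stood apart from the other Si samples: it was at least 2 times both of them, at 5 TPM or more, in 170 genes tested and in 72 of the called rises, while each other library stood above its group in 45 to 65 genes and in 2 to 13 called rises. Of 19 root markers 4 passed the filter, and none was called; NAXT1, a nitrate transporter that made up most of their signal, had 17.1, 16.5, and 10.3 TPM in Si, against 7.87, 5.95, and 6.39 TPM in CK (log2 fold change 0.99), and passed the threshold without CK replicate 1 (1.1) or Si replicate 3 (1.21). The 3 lists taken as marks of leaf mesophyll went different ways. The summed TPM of the 29 Calvin-Benson genes ran from 84042 to 88993 in Si and from 79152 to 82428 in CK. That of the 30 photosystem genes ran from 54334 to 59436 in Si and from 68962 to 70689 in CK. For the 20 light-harvesting genes it ran from 21674 to 23524 in Si and from 51738 to 54613 in CK.

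**Figure D1:**
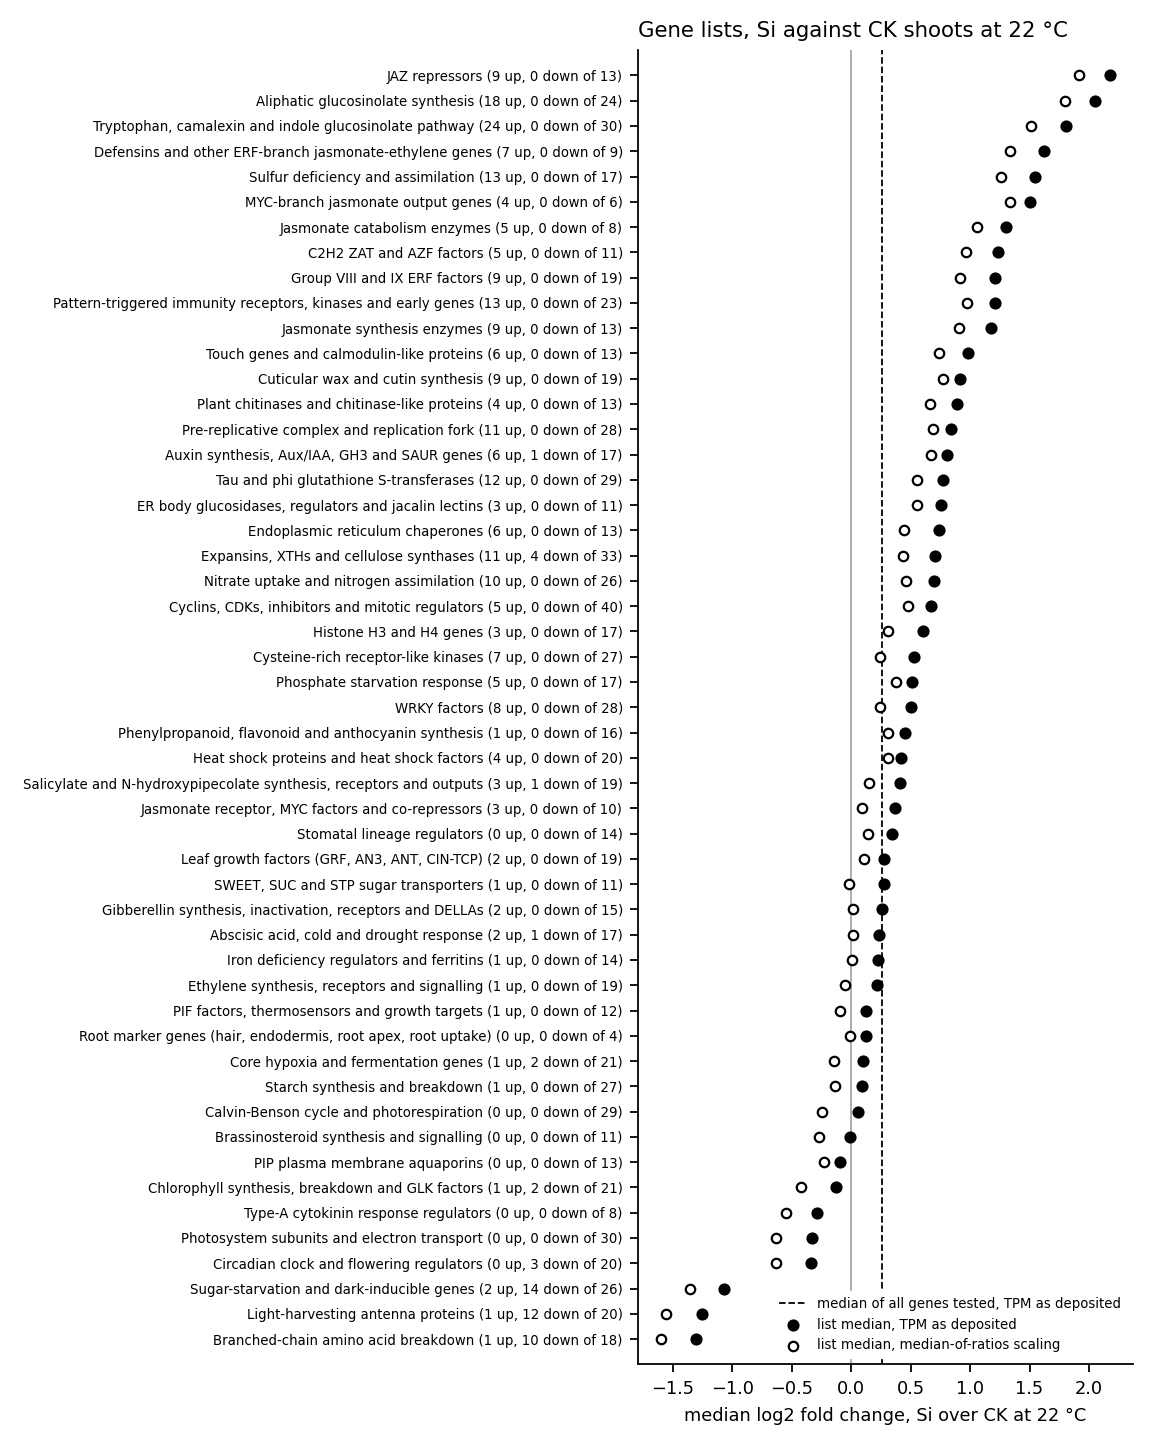
Gene lists at 22°C. For each list, the filled point is the median log2 fold change of Si over CK of the members tested, the open point the same after median-of-ratios scaling, the dashed line the median of all genes tested, and the numbers in brackets the members called up and called down of those tested. The JAZ, aliphatic glucosinolate, and tryptophan lists lie furthest above the median of all genes (0.26), at 2.18, 2.05, and 1.81, and the branched-chain amino acid, light-harvesting, and sugar starvation lists furthest below it, at -1.31, -1.26, and -1.07. The lists were chosen with earlier results of these data known.

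Among the 12 largest rises that met the naming rule were JAZ7 and MYC2 of JA signalling, OPCL1 of JA synthesis, the defensins PDF1.2 and PDF1.2c, IPMI1 and GSTF11 of glucosinolate synthesis, APR1 of sulfate reduction, PGDH of serine synthesis, and CYP82C2 of the indolic pathway. The remaining rises in this set were AT3G50800, a gene of unknown function with 30.6, 6.87, and 16.9 TPM in Si, against 0, 0.37, and 0 TPM in CK, and AT1G09523. AT1G09523 lies antisense to BZR1, and because the strand handling of the counting is not given in the sources used here, its value of 3.71 is uncertain. Among the 12 largest falls were ASN1, MIOX4, UMAMIT33, and GAT1_2.1, genes known to be switched on when leaf cells run short of sugar, and AT1G19530, known as a gene of the low-oxygen response. Measured in TPM, the 6 largest rises were GRP-3, TCH3, PRXR1, AT5G42530, AT2G10940, and AT1G15125, and the 6 largest falls were those of LHCB1.3, SEN1, LHCB1.4, LHCA1, LHCA3, and AT2G08665, an RNA that overlaps LHCB1.5.

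The naming rule left out genes under 200 bases long and genes listed at 0 in all 3 samples of a group. Among the rest AT1G19530 had the largest fall, with 8.68, 14.8, and 18.8 TPM in Si, against 407, 569.9, and 550.4 TPM in CK (log2 fold change -5.12 ± 0.28 SE, adjusted p = 5.3e-09). AT4G36850, a putative vacuolar PQ-loop transporter, had 3.68, 6.32, and 5.74 TPM in Si, against 137, 149, and 153 TPM in CK (log2 fold change -4.58 ± 0.14 SE, adjusted p = 3.3e-11). In both genes the CK samples were close to one another. Groups without overlap were a condition of the naming rule for these falls, so their separation is no further evidence. AT3G59930, a defensin-like gene, had 4.44, 4.47, and 2 TPM in Si, against 64.3, 104, and 104 TPM in CK (log2 fold change -4.33 ± 0.31 SE, adjusted p = 4.4e-08), so a defensin-like transcript fell in the same shoots in which PDF1.2 rose. AT5G14560, only 123 bases long and overlapping AT5G14550, was listed at 0 in all 3 Si samples and at 37.3, 57.1, and 403 TPM in CK, so no fold is given.

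JA synthesis genes rose along most of the pathway. Of 13 synthesis genes tested, 9 rose and none fell, with a median log2 fold change of 1.18 against 0.26 over all genes; 6 were called after median-of-ratios scaling, which set the median at 0.91. OPCL1, the ligase that prepares the precursor OPC-8 for beta-oxidation, had 51.8, 96.2, and 80.8 TPM in Si, against 6.55, 5.85, and 7.45 TPM in CK (log2 fold change 3.3 ± 0.36 SE, adjusted p = 2.3e-06). OPR3, the reductase before it, had 51.7, 79.8, and 83.0 TPM in Si, against 15.9, 11.3, and 11.4 TPM in CK (log2 fold change 2.37 ± 0.22 SE, adjusted p = 4.6e-07), and AOS, the enzyme that commits 13-lipoxygenase products to JA, had 54.4, 81.4, and 62.7 TPM in Si, against 19.3, 11.1, and 10.8 TPM in CK (log2 fold change 2.22 ± 0.21 SE, adjusted p = 6.1e-07). In all 3 genes the groups were clear of each other by more than 2-fold. LOX4, a 13-lipoxygenase at the head of the pathway, had 3.71, 31.4, and 7.45 TPM in Si, against 1.57, 1.37, and 1.24 TPM in CK. Si replicate 2 was far above the other Si samples. The log2 fold change was 2.19 with all samples and 1.4, still called (adjusted p = 0.024), without that library. Between LOX and OPR3 stand the allene oxide cyclases, of which AOC1, AOC2, and AOC3 rose by 1.08, 1.14, and 1.42 on the log2 scale and AOC4 was at 0.46, uncalled. The call of AOC1 was lost without CK replicate 2 (0.98), Si replicate 2 (0.92), or Si replicate 3 (0.99). The last steps were flat: ACX1, an acyl-CoA oxidase of beta-oxidation, was at -0.03, and JAR1, which couples JA to isoleucine, at 0.12.

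The JAZ repressors had the highest median of the 51 lists described, which were chosen with earlier results of these data known. All 13 genes of the family passed the filter, 9 rose, and none fell (median 2.18); the count was 9 under median-of-ratios scaling too, with a median of 1.92. The response differed between members. JAZ7 had 49.0, 96.6, and 127 TPM in Si, against 1.41, 4.13, and 6.54 TPM in CK (log2 fold change 4.24 ± 0.97 SE, adjusted p = 0.0016). JAZ8, a repressor that lacks the usual degron and so resists JA-induced degradation, had 3.41, 10.6, and 9.38 TPM in Si, against 0.26, 0, and 0.090 TPM in CK (log2 fold change 2.86 ± 0.65 SE, adjusted p = 0.0015), and JAZ13, another repressor of this stable kind, had 1.08, 3.93, and 3.15 TPM in Si, against 0, 0, and 0 TPM in CK (adjusted p = 0.00067, with no fold given because CK was listed at 0). JAZ8 and JAZ13 were at or near 0 in CK, and each of their Si samples lay above CK, as it did for JAZ7. The members with more transcript in CK rose too. JAZ9 had 184, 302, and 322 TPM in Si, against 51.6, 52.0, and 64.1 TPM in CK (log2 fold change 2.21 ± 0.43 SE, adjusted p = 0.00048). JAZ1 had 92.7, 127, and 118 TPM in Si, against 15.9, 13.2, and 17.7 TPM in CK (log2 fold change 2.77 ± 0.41 SE, adjusted p = 4.4e-05). JAZ2 had 104, 154, and 184 TPM in Si, against 24.2, 24.0, and 27.1 TPM in CK (log2 fold change 2.47 ± 0.40 SE, adjusted p = 9.7e-05). In these 3 genes the lowest Si sample lay well above the highest CK sample, and JAZ6 did the same at 202 TPM in Si against 43.6 TPM in CK (log2 fold change 2.17 ± 0.24 SE, adjusted p = 2.2e-06). JAZ5 and JAZ10 rose by 2.63 and 2.18 on the log2 scale. JAZ3, JAZ4, JAZ11, and JAZ12, at -0.03, 0.16, -0.02, and -0.06, were uncalled with overlapping groups, among them JAZ12 at 119 TPM in Si against 124 TPM in CK, a TPM level in both groups close to that of JAZ1 in Si (113 TPM).

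MYC2 binds the G-box CACGTG, and 5 of the 13 JAZ genes hold this hexamer in the 250 bases before their annotated start, against 1384 of 19760 promoters of genes tested (7.004%), 113 of 1593 promoters of called rises (7.09%), and 30 of 266 promoters of called falls (11.3%). The hexamer reads the same on both strands. JAZ3 has it at 2 places and was uncalled; JAZ2, JAZ7, JAZ8, and JAZ13 have it once and rose. Their upstream sequences are shown, in the direction of transcription, with the G-box in capitals; it lies 66, 34, 10, and 95 bases before the start of JAZ2, JAZ7, JAZ8, and JAZ13. Sequences and coordinates are from RefSeq TAIR10.1. A match is a stretch of letters and not a measured binding site.
JAZ2, chr1:28150447-28150696, minus strand: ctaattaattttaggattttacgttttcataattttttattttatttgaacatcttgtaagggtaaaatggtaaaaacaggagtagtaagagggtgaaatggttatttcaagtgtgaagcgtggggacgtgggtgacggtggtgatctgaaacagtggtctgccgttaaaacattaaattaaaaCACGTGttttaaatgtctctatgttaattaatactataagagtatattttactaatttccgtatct
JAZ7, chr2:14572780-14573029, plus strand: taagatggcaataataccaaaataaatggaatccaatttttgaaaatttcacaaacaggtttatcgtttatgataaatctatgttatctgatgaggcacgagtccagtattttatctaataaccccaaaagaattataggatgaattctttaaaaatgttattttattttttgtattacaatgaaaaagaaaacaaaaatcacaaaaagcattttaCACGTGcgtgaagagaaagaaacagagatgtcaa
JAZ8, chr1:10596102-10596351, plus strand: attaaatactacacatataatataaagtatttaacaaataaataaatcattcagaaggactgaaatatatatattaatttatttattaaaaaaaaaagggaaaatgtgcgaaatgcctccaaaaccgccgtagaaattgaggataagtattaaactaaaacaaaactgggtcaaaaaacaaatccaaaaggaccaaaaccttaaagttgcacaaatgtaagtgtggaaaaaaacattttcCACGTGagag
JAZ13, chr3:7879811-7880060, minus strand: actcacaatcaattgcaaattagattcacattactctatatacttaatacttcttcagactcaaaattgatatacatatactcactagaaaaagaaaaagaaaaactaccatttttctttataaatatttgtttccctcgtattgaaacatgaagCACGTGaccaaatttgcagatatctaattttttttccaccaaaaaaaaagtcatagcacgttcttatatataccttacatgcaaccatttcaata

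Genes of JA catabolism, which oxidises or cleaves the active hormone, rose too. Of 8 genes tested, 5 rose and none fell (median 1.3, 1.06 after median-of-ratios scaling, where 4 were called). CYP94C1, which oxidises JA-isoleucine to its carboxy form, had 8.30, 14.1, and 21.7 TPM in Si, against 1.4, 0.64, and 0.85 TPM in CK (log2 fold change 2.92 ± 0.42 SE, adjusted p = 3.1e-05). CYP94B1, which carries out the hydroxylation before it, had 1.29, 2.45, and 5 TPM in Si, against 0.39, 0.20, and 0.41 TPM in CK (log2 fold change 1.44 ± 0.30 SE, adjusted p = 0.00082), and the groups did not overlap in either gene. The amidohydrolase IAR3 rose by 1.69 and JOX2, a JA hydroxylase, by 1.35 on the log2 scale. ILL6, the second amidohydrolase, rose by 1.12, and this call was lost without Si replicate 2 (0.93), without Si replicate 3 (0.95), or without CK replicate 2 (0.91).

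The core of JA signalling was affected at MYC2 but little elsewhere: 3 of 10 genes rose and none fell (median 0.37), and after median-of-ratios scaling, as after quantile normalization, 1 was called, with a median of 0.09 under the first scaling. MYC2, the leading transcription factor of the pathway, had 48.3, 70.7, and 59.6 TPM in Si, against 5.27, 2.85, and 9.49 TPM in CK (log2 fold change 3.24 ± 0.61 SE, adjusted p = 0.00033), with the lowest Si sample far above the highest CK sample. Its relative MYC4 rose by 1.17, and by 0.9969 without CK replicate 2, which ends the call; the third relative, MYC3, was at 0.19 with 49.0 TPM in Si against 43.0 TPM in CK. JAV1, a repressor of JA defence that is degraded on wounding, rose by 1.05. The receptor COI1 had 27.0, 23.0, and 25.1 TPM in Si, against 20.5, 20.11, and 22.7 TPM in CK, a log2 fold change of 0.24, no more than the median of all genes. The adaptor NINJA and the co-repressor TPL, which sit on the JAZ proteins, were at 0.30 and 0.26, and the repressive bHLH factors JAM1, JAM2, and JAM3 at 0.93, 0.44, and -0.10, uncalled; JAM1 passed the threshold without CK replicate 3 (1.01) or Si replicate 1 (1.0016).

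Output genes of the MYC branch rose in 4 of 6 cases, with no falls (median 1.5, 1.33 after median-of-ratios scaling). CLH1, a chlorophyllase induced by wounding and JA, had 79.6, 93.0, and 83.6 TPM in Si, against 10.5, 7.54, and 8.63 TPM in CK (log2 fold change 3.13 ± 0.21 SE, adjusted p = 2.1e-08). JR1, a lectin-like wound response gene, had 52.4, 66.7, and 74.2 TPM in Si, against 20.06, 21.0, and 17.5 TPM in CK (log2 fold change 1.66 ± 0.14 SE, adjusted p = 1.6e-07), and CORI3, a cystine lyase induced by coronatine, rose by 1.7. NATA1, which makes acetylornithine in defence against insects, rose by 1.35 from values near 0 and by 0.98 without Si replicate 1, which ends the call. The vegetative storage proteins, classical JA markers of leaves, stayed near the floor: VSP2 had 0.47, 2.52, and 1.83 TPM in Si, against 0.40, 0.31, and 0.37 TPM in CK (log2 fold change 0.85 ± 0.48 SE, adjusted p = 0.14), and VSP1 was at 0.51 TPM or less in every sample. THI2.1 was listed at 0 in all 6 samples and TAT3 did not pass the filter.

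The branch that JA and ET induce together was raised at its ends. Of 9 defensin and ERF-branch genes tested, 7 rose and none fell (median 1.62, 1.33 after median-of-ratios scaling, again with 7 called). PDF1.2, the defensin used as the marker of this branch, had 53.9, 49.0, and 38.5 TPM in Si, against 1.45, 3.63, and 1.75 TPM in CK (log2 fold change 3.92 ± 0.57 SE, adjusted p = 3.7e-05), and its close copy PDF1.2c had 21.2, 23.8, and 18.7 TPM in Si, against 0.48, 0.77, and 0.16 TPM in CK (log2 fold change 3.93 ± 0.58 SE, adjusted p = 4.2e-05). The near-identical PDF1.2b and PDF1.3 rose by 1.48 and 2.14; how reads shared between these copies were divided is not known, so the size for each copy is uncertain. ORA59, the transcription factor that joins both hormones on PDF1.2, had 49.6, 55.5, and 72.9 TPM in Si, against 8.39, 7.69, and 8.79 TPM in CK (log2 fold change 2.68 ± 0.21 SE, adjusted p = 9.7e-08). HEL, a chitin-binding PR4 protein, had 225, 253, and 205 TPM in Si, against 68.7, 80.5, and 71.0 TPM in CK (log2 fold change 1.62 ± 0.17 SE, adjusted p = 1.2e-06), and CHIB, a basic chitinase, rose by 1.54. ERF1, the other integrator of both hormones, had 5.57, 4.92, and 10.8 TPM in Si, against 2.06, 3.81, and 6.84 TPM in CK (log2 fold change 0.67 ± 0.44 SE, adjusted p = 0.21), with overlapping groups. PDF1.4 was at -0.10, and PDF1.1 was listed at 0 throughout. ERF proteins bind the GCC-box GCCGCC, searched on both strands. It was found upstream of PDF1.2, PDF1.2b, and ORA59, 3 of the 9 genes, against 415 of 19760 promoters of genes tested (2.1%) and 40 of 1593 promoters of called rises (2.51%). The sequences of PDF1.2 and ORA59 carry it in capitals, 222 bases before the start of PDF1.2 and 230 before that of ORA59.
PDF1.2, chr5:17907639-17907888, minus strand: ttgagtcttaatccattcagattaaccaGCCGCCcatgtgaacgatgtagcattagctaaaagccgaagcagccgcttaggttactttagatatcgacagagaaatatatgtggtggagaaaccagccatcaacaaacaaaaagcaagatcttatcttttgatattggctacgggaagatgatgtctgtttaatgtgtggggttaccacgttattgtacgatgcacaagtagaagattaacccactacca
ORA59, chr1:1882657-1882906, plus strand: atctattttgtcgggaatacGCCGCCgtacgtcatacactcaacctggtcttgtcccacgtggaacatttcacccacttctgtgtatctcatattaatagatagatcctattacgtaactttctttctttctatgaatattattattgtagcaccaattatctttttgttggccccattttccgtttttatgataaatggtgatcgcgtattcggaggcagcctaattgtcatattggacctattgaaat

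**Figure D2:**
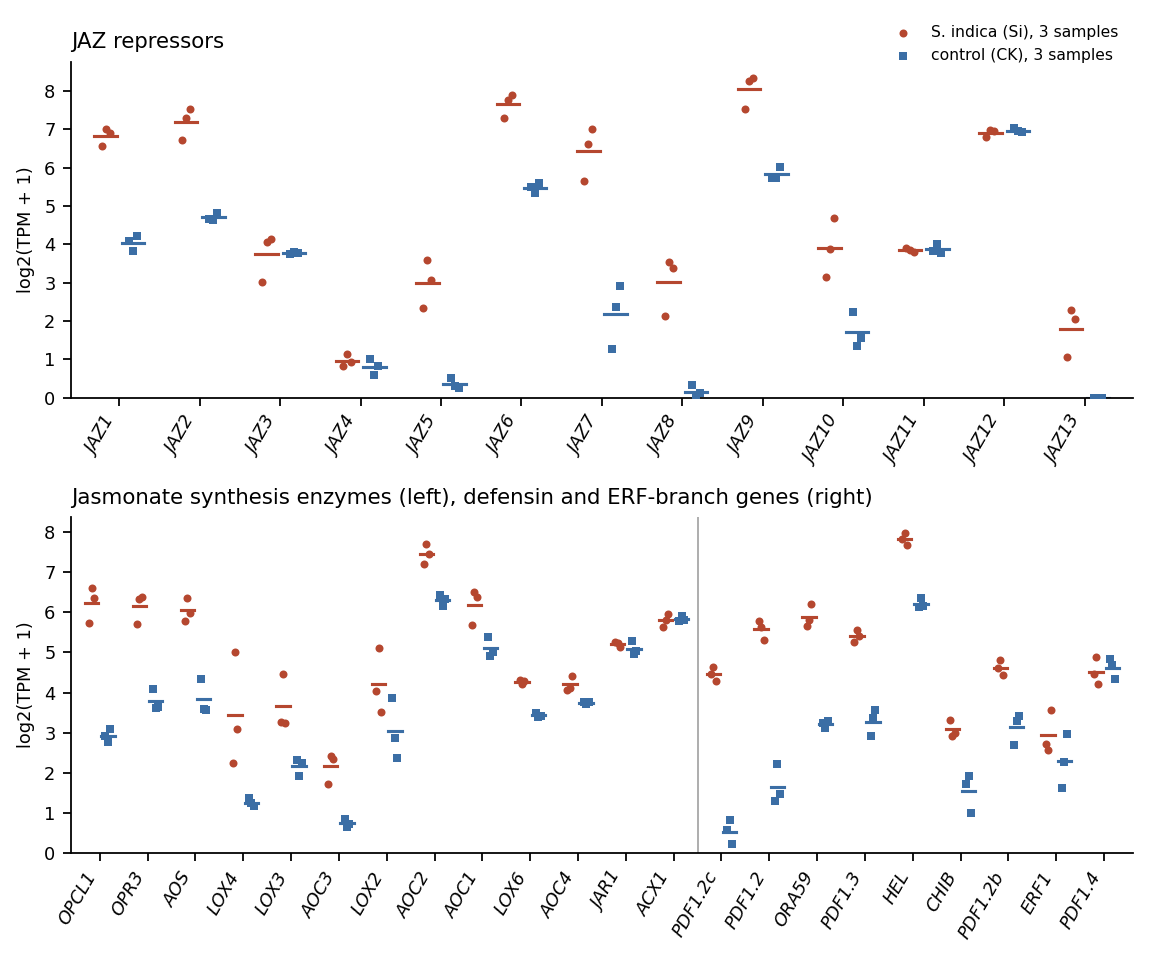
JA genes by sample at 22°C, the JAZ family above and the JA synthesis and defensin lists beneath. Each point is 1 sample on the scale of log2(TPM + 1), with the 3 Si samples (circles) left of the 3 CK samples (squares) for each gene and a bar at the group mean. The Si values of JAZ7 (49.0 to 127 TPM) and PDF1.2 (38.5 to 53.9 TPM) lie above their CK values, while those of JAZ12 overlap CK.

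Ethylene genes proper were little affected. Of 19 synthesis, receptor, and signalling genes, 1 rose (5.3%, against 8.0% of all genes tested) and none fell (median 0.22). Without Si replicate 1 or Si replicate 3, 2 rose. The rise with all samples was ACS6, which makes the ethylene precursor ACC and is a target of stress-activated MAP kinases, with 49.0, 46.6, and 27.2 TPM in Si, against 2.3, 3.52, and 7.46 TPM in CK (log2 fold change 3.02 ± 0.53 SE, adjusted p = 0.00019). The ERF transcription factors moved more, with 9 of 19 rising and none falling (median 1.21, 0.91 after median-of-ratios scaling, with 9 called). ERF2, an activator on the GCC-box, had 187, 193, and 174 TPM in Si, against 16.1, 16.8, and 33.0 TPM in CK (log2 fold change 3.09 ± 0.55 SE, adjusted p = 0.0002). ERF6, a substrate of the MAP kinases MPK3 and MPK6, had 129, 158, and 141 TPM in Si, against 13.7, 23.2, and 41.5 TPM in CK (log2 fold change 2.54 ± 0.71 SE, adjusted p = 0.0067). The Si samples were alike in both genes, while CK replicate 3 stood above the other CK samples. ERF13 and ERF105 rose by 2.41 and 2.34.

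Fast stress regulators followed, though less evenly. In the family of C2H2 zinc finger repressors (ZAT and AZF), 5 of 11 rose and none fell (median 1.24), while 3 were called after median-of-ratios scaling, 2 after quantile normalization, and 2, with a median of 0.73, without Si replicate 2. ZAT6 had 122, 91.4, and 69.8 TPM in Si, against 19.1, 21.6, and 23.2 TPM in CK (log2 fold change 2.06 ± 0.28 SE, adjusted p = 2.1e-05), and AZF3 rose by 1.35. ZAT11 had 1.77, 22.7, and 2.75 TPM in Si, against 0.55, 1.05, and 0.49 TPM in CK, with Si replicate 2 far above the other samples; the log2 fold change was 1.90 with all samples and 0.94 (adjusted p = 0.057) without it. ZAT12 gave 1.24 and 0.88 (adjusted p = 0.073) in the same pair of fits. ZAT10 had 206, 171, and 101 TPM in Si, against 32.1, 54.0, and 68.4 TPM in CK (log2 fold change 1.62 ± 0.59 SE, adjusted p = 0.028) and lost its call when Si replicate 1 (1.4), Si replicate 2 (1.54), CK replicate 1 (1.31), or CK replicate 2 (1.68) was left out. ZAT18, at 1.58, was uncalled.

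Touch-induced and calmodulin-like genes, which answer calcium, rose in 6 of 13 cases with no falls (median 0.98). TCH3, a calmodulin-like protein with one of the largest gains in TPM units, had 1088, 1314, and 1636 TPM in Si, against 349, 400.2, and 529 TPM in CK (log2 fold change 1.66 ± 0.39 SE, adjusted p = 0.0021). TCH2, another calmodulin-like protein, had 86.8, 98.0, and 93.3 TPM in Si, against 24.9, 22.4, and 30.4 TPM in CK (log2 fold change 1.81 ± 0.21 SE, adjusted p = 4.5e-06), and CML38 and CML42, known from wounding and JA responses, rose by 1.49 and 1.45. WRKY factors rose in 8 of 28 cases, none fell, and their median was 0.50, against 0.26 over all genes. That median was 0.24 after median-of-ratios scaling, 0.12 after quantile normalization, and 0.25 without Si replicate 2, with 7, 6, and 6 of the 28 called. WRKY33, which switches on camalexin synthesis, had 319, 392, and 263 TPM in Si, against 33.2, 39.5, and 73.5 TPM in CK (log2 fold change 2.78 ± 0.48 SE, adjusted p = 0.00018). WRKY40 and WRKY18, a pair that restrains basal defence, rose by 2.35 and 2.21. WRKY55 had 1.11, 20.4, and 2.1 TPM in Si, against 0.050, 0.31, and 0.48 TPM in CK; its log2 fold change was 2.03 with all samples and 1.01 (adjusted p = 0.074) without Si replicate 2. The W-box of WRKY factors, TTGACC or TTGACT on either strand, stood in 5540 of 19760 promoters of genes tested (28.04%), 538 of 1593 promoters of called rises (33.8%), and 58 of 266 promoters of called falls (21.8%).

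Genes of pattern-triggered immunity, the first defence after recognition of microbial or damage signals, rose in 13 of 23 cases, and none fell (median 1.21; 11 called and a median of 0.97 after median-of-ratios scaling). RBOHD, the oxidase behind the defence burst of reactive oxygen, had 41.4, 58.3, and 44.3 TPM in Si, against 9.27, 6.32, and 7.87 TPM in CK (log2 fold change 2.47 ± 0.15 SE, adjusted p = 1.1e-08). The zinc finger gene SZF1 had 194, 213, and 133 TPM in Si, against 21.2, 27.0, and 58.0 TPM in CK (log2 fold change 2.42 ± 0.52 SE, adjusted p = 0.001), with the lowest Si sample above the highest CK sample in both genes. PROPEP3, the precursor of a damage peptide, had 6.15, 26.6, and 8.77 TPM in Si, against 0, 1.88, and 0.36 TPM in CK (log2 fold change 2.98 ± 0.59 SE, adjusted p = 0.00052), and NHL10 had 7.87, 20.9, and 7.46 TPM in Si, against 0.71, 1.93, and 2.89 TPM in CK (log2 fold change 2.13 ± 0.39 SE, adjusted p = 0.00028). In both, Si replicate 2 was the highest Si sample. Of the receptors in this list, FLS2 for flagellin, EFR for elongation factor Tu, and CERK1 for chitin were at 0.46, 0.41, and 0.40, uncalled. These lie outside the naming rule and were picked after their values were seen. PEPR2 did not pass the filter, with 0.71, 1.07, and 0.92 TPM in Si, against 0.34, 0.21, and 0.11 TPM in CK. LYK4, LYK5, and PEPR1 are not described here, so nothing is said of the receptors as a group. Cysteine-rich receptor kinases rose in 7 of 27 cases (median 0.53), but in 4 after median-of-ratios scaling (median 0.25) and 3 after quantile normalization (median 0.23), and the median was 0.34 without Si replicate 2. The rises were led by CRK12 at 2.44, CRK10 at 1.73, CRK40 at 1.53, and CRK20 at 1.25.

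SA genes gave a mixed picture. Of 19 genes of SA and N-hydroxypipecolic acid tested, 3 rose and 1 fell (median 0.41, against 0.26 over all genes), and 1 rose after quantile normalization. EDS5, which exports the SA precursor from plastids, had 4.56, 6.49, and 5.76 TPM in Si, against 1.13, 1.19, and 0.57 TPM in CK (log2 fold change 1.75 ± 0.15 SE, adjusted p = 2e-07). CBP60G, a transcription factor of SA synthesis, had 23.7, 30.6, and 24.5 TPM in Si, against 9.65, 8.93, and 11.98 TPM in CK (log2 fold change 1.29 ± 0.19 SE, adjusted p = 4.4e-05). PR5 had 12.4, 20.4, and 7.08 TPM in Si, against 4.77, 6.97, and 1.99 TPM in CK, a log2 fold change of 1.36 with all samples and 0.96, uncalled, without CK replicate 3. AIG1, a GTPase induced by avirulent bacteria, fell, with 1.66, 1.51, and 0.64 TPM in Si, against 10.12, 8.88, and 3.6 TPM in CK (log2 fold change -1.84 ± 0.29 SE, adjusted p = 6.2e-05). ICS1, the isochorismate synthase that starts SA synthesis and lies outside the naming rule, was at 0.36, uncalled. PR1, the marker of SA, did not pass the filter: it had 0.07, 0.16, and 0.15 TPM in Si, against 0.29, 31.8, and 0.66 TPM in CK, so that CK replicate 2 alone was high. Chitinase genes, whose products cut fungal walls, rose in 4 of 13 cases and in 7 of 13 without Si replicate 3 (median 0.89); 2 did after quantile normalization. AT2G43590, a gene of the chitinase family, had 64.8, 79.6, and 70.0 TPM in Si, against 11.02, 9.06, and 7.66 TPM in CK (log2 fold change 2.83 ± 0.16 SE, adjusted p = 7.8e-09), and AT4G01700 rose by 1.35. CHI had 10.4, 25.02, and 10.8 TPM in Si, against 3.57, 10.6, and 3.73 TPM in CK, with overlapping groups; its log2 fold change was 1.27 with all samples and 0.88, uncalled, without Si replicate 2.

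Genes for tryptophan-derived defence compounds had the highest number of rises of the 51 lists, which differ in size and were chosen with earlier results of these data known. Of 30 genes from tryptophan synthesis to camalexin, indole glucosinolates, and 4-hydroxyindole-3-carbonylnitrile, 24 rose and none fell (median 1.81); after median-of-ratios scaling 21 were called, with a median of 1.52. CYP79B2, which turns tryptophan into indole-3-acetaldoxime at the entry of all these routes, had 56.9, 105, and 55.4 TPM in Si, against 6.68, 6.33, and 6.32 TPM in CK (log2 fold change 3.24 ± 0.22 SE, adjusted p = 2.2e-08). Its partner CYP79B3 had 37.2, 53.8, and 45.4 TPM in Si, against 8.96, 10.05, and 8.80 TPM in CK (log2 fold change 2.16 ± 0.18 SE, adjusted p = 2.1e-07). PAD3, the last enzyme of camalexin, a sulfur-containing phytoalexin, had 6.85, 11.1, and 6.88 TPM in Si, against 0.59, 0.41, and 0.35 TPM in CK (log2 fold change 2.65 ± 0.31 SE, adjusted p = 4.2e-06), and no Si value overlapped CK in these genes. FOX1 and CYP82C2 complete the carbonylnitrile branch. FOX1 had 26.5, 83.5, and 27.5 TPM in Si, against 3.06, 4.19, and 5.23 TPM in CK (log2 fold change 2.99 ± 0.37 SE, adjusted p = 7.4e-06), and CYP82C2 had 25.3, 102, and 16.0 TPM in Si, against 1.04, 0.85, and 11.98 TPM in CK (log2 fold change 3.29 ± 0.93 SE, adjusted p = 0.007), with Si replicate 2 highest in both and CK replicate 3 close to the lower Si samples of CYP82C2. In tryptophan synthesis itself, read as a small family, ASA1 and ASB1 of the first step rose by 1.75 and 1.89, TSA1 of the last step by 1.82, while TSB1, its partner subunit, was at 0.88 and uncalled.

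Genes for aliphatic glucosinolates, which are made from methionine, rose at most steps of the pathway. Of 26 genes listed, 24 were tested, 18 rose, and none fell (median 2.05; 16 called and a median of 1.8 after median-of-ratios scaling). The pathway first lengthens the side chain of methionine. IPMI1, a small subunit of the isomerase of this cycle, had 41.2, 69.5, and 62.4 TPM in Si, against 4.21, 3.42, and 4.75 TPM in CK (log2 fold change 3.49 ± 0.37 SE, adjusted p = 1.7e-06). CYP79F1, which starts the core structure, had 24.7, 37.9, and 25.6 TPM in Si, against 3.05, 2.15, and 1.65 TPM in CK (log2 fold change 3.21 ± 0.30 SE, adjusted p = 4.9e-07). The groups were far apart in both genes. GSTF11, a glutathione transferase of the step that brings in the sulfur atom, had 10.09, 19.5, and 16.5 TPM in Si, against 0.81, 0.59, and 0.61 TPM in CK (log2 fold change 3.25 ± 0.33 SE, adjusted p = 1.2e-06). GSTU20, of the same step, had 47.5, 63.3, and 50.04 TPM in Si, against 5.81, 5.10, and 3.86 TPM in CK (log2 fold change 3.21 ± 0.28 SE, adjusted p = 2.4e-07). The regulators MYB28 and MYB29 rose by 2.0 and 2.1, and the third of this family, MYB76, was at 0.71 and uncalled. Glutathione transferases as a list rose in 12 of 29 cases with no falls (median 0.77), among them GSTU4 at 2.76 and GSTU24 at 2.41.

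Genes of sulfate assimilation, which feeds cysteine and the glucosinolates, rose as well: 13 of 17 genes rose and none fell (median 1.54; 11 called and a median of 1.26 after median-of-ratios scaling). The reductases of activated sulfate, the controlled step of the pathway, moved together. APR1 had 66.4, 95.3, and 75.8 TPM in Si, against 7.42, 6.29, and 7.22 TPM in CK (log2 fold change 3.32 ± 0.16 SE, adjusted p = 2.3e-09), APR3 had 143, 171, and 133 TPM in Si, against 26.0, 22.8, and 22.5 TPM in CK (log2 fold change 2.59 ± 0.11 SE, adjusted p = 1.2e-09), and APR2 had 38.8, 44.1, and 41.6 TPM in Si, against 8.92, 6.24, and 7.09 TPM in CK (log2 fold change 2.35 ± 0.12 SE, adjusted p = 3.8e-09). APS3, an ATP sulfurylase, had 30.6, 44.1, and 41.2 TPM in Si, against 5.03, 3.32, and 2.68 TPM in CK (log2 fold change 3.1 ± 0.20 SE, adjusted p = 2.1e-08). The groups did not overlap in any of these 4 genes, as in 1584 of all 1603 called rises. Some genes that answer sulfur shortage were among the rises, with SDI1 at 1.1, uncalled after either scaling, and LSU2 at 2.04. Both were picked after their values were seen. BGLU28 and SULTR1;1, of the same list, did not pass the filter and were at 0.19 TPM or less in every sample at 22°C. SULTR1;2, a sulfate transporter, was at 0.52, uncalled. PGDH, a phosphoglycerate dehydrogenase that opens serine synthesis in plastids, had 15.9, 19.8, and 16.4 TPM in Si, against 0.82, 0.74, and 0.89 TPM in CK (log2 fold change 3.33 ± 0.19 SE, adjusted p = 8.9e-09). Other steps were looked up after this value was seen: EDA9, a second dehydrogenase, was at 1.32 and PSAT at 1.81, both called, and PSP, the last step, at 0.32, uncalled. The adenylylsulfate kinases APK and AKN2, which activate sulfate for the glucosinolate sulfotransferases, were at 1.94 and 2.91, both called.

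**Figure D3:**
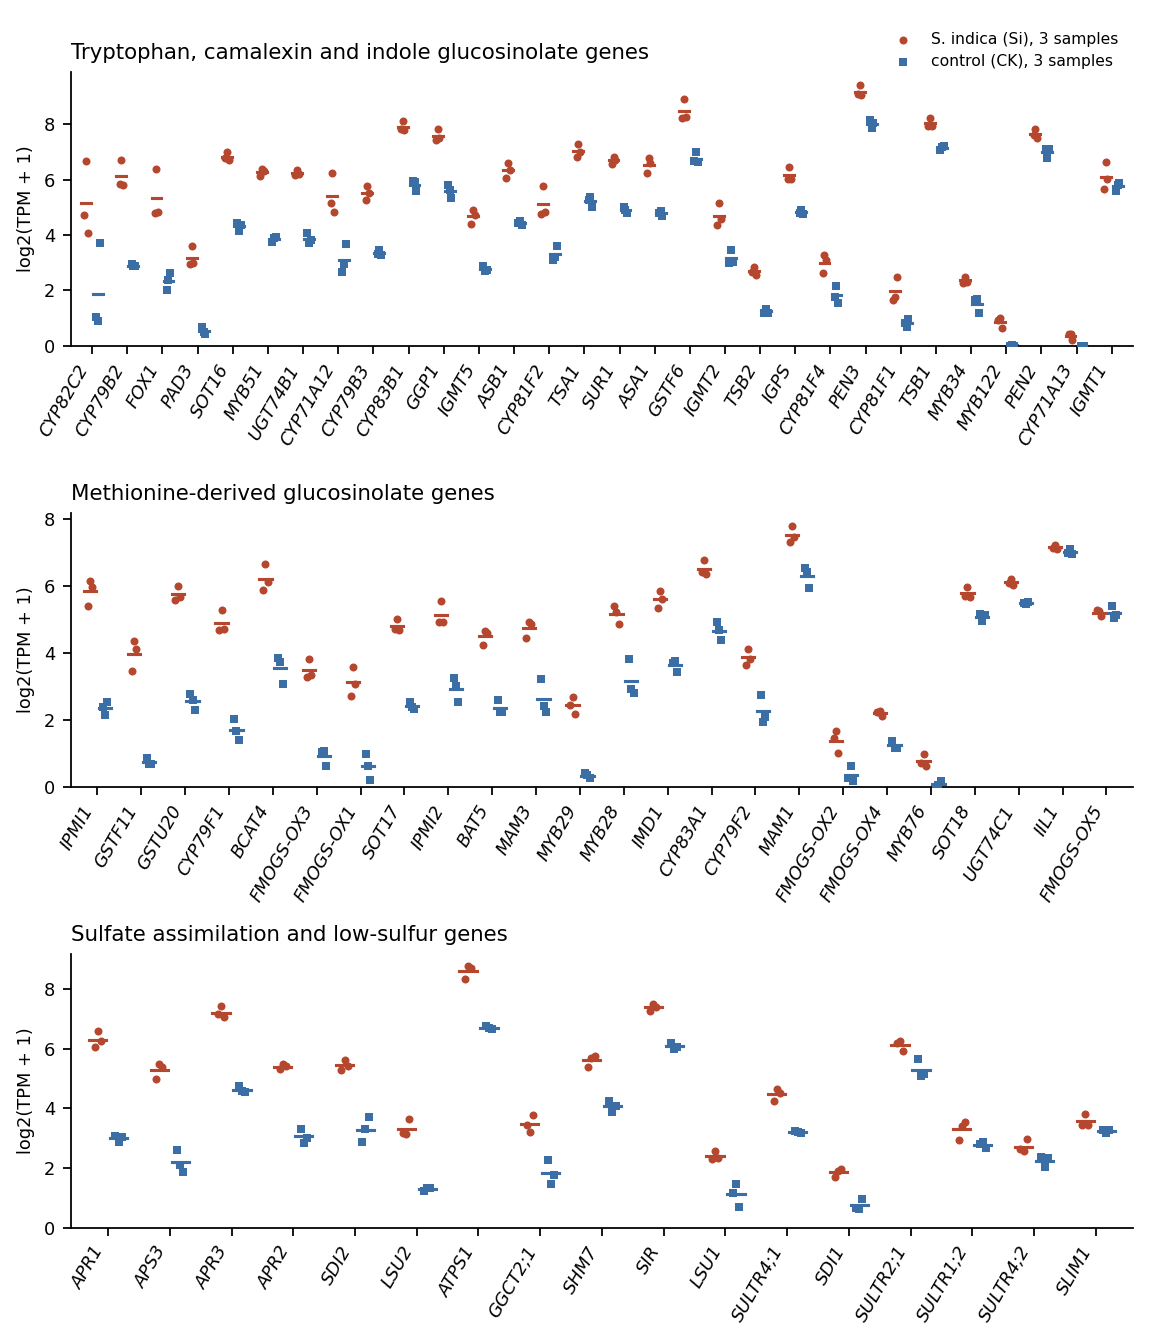
Tryptophan and indolic, aliphatic glucosinolate, and sulfate genes by sample at 22°C. Each point is 1 sample on the scale of log2(TPM + 1), with the 3 Si samples (circles) left of the 3 CK samples (squares) for each gene and a bar at the group mean. APR1 lies between 66.4 and 95.3 TPM in Si and between 6.29 and 7.42 TPM in CK.

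Genes of ER bodies, which store the myrosinase PYK10 in stressed and root cells, responded unevenly, with 3 of 11 genes rising, and 5 without CK replicate 1 (median 0.75). BGLU18, a beta-glucosidase of wound-induced ER bodies, rose by 1.87, and NAI1, the bHLH factor of ER body formation, had 10.5, 16.5, and 19.0 TPM in Si, against 3.93, 3.19, and 3.96 TPM in CK (log2 fold change 1.77 ± 0.24 SE, adjusted p = 1.9e-05). PYK10 had 286, 329.6, and 293 TPM in Si, against 224, 186, and 151 TPM in CK and was uncalled at 0.71, while NAI2, an ER body protein, was at -0.45. Genes of phenylpropanoid and flavonoid synthesis had 1 rise in 16 (6.25%, against 8.0% of all genes tested), and 2 without Si replicate 3. The rise with all samples was PAP2 (AT1G66390), a MYB factor of anthocyanin synthesis, with 6.13, 2.98, and 4.50 TPM in Si, against 0.38, 0.12, and 0.38 TPM in CK (log2 fold change 2.06 ± 0.23 SE, adjusted p = 2.8e-06).

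Genes of mineral nutrition rose in part. Of 26 nitrogen genes, 10 rose and none fell (median 0.70); after median-of-ratios scaling 6 rose and 1 fell, and 1 fell as well after quantile normalization or without Si replicate 1. UPM1, which makes the siroheme that nitrite and sulfite reductases carry, had 101, 91.2, and 81.6 TPM in Si, against 25.5, 21.98, and 22.6 TPM in CK (log2 fold change 1.92 ± 0.12 SE, adjusted p = 1.4e-08), and NIR1, nitrite reductase, had 145, 145, and 114 TPM in Si, against 50.6, 33.3, and 35.7 TPM in CK (log2 fold change 1.75 ± 0.16 SE, adjusted p = 3.2e-07). GLN1;1 and GLT1, a glutamine synthetase and the NADH-dependent glutamate synthase, rose by 1.52 and 1.45. NIA1, a nitrate reductase outside the naming rule, was at -0.10. Of 17 phosphate starvation genes, 5 rose, and 3 did when CK replicate 2 or CK replicate 3 was left out (median 0.51; 3 called after median-of-ratios scaling and 1 after quantile normalization). SPX1, a phosphate sensor, had 60.4, 86.5, and 82.9 TPM in Si, against 30.6, 22.8, and 18.6 TPM in CK (log2 fold change 1.65 ± 0.22 SE, adjusted p = 1.5e-05), PHT1;4, a phosphate transporter, rose by 1.37, and PAP17, an acid phosphatase, by 1.29. G3PP1 rose by 1.03 and was not called without Si replicate 2 (0.92), CK replicate 2 (0.84), or CK replicate 3 (0.74). SPX3, IPS1, PS2, RNS1, and NPC4 of this list did not pass the filter. SPX3 and IPS1 were at 0.16 TPM or less in every sample at 22°C. PS2 had 0.68, 1.41, and 0.36 TPM in Si, against 2.01, 0.51, and 0.27 TPM in CK. RNS1 had 0.21, 0.06, and 0 TPM in Si, against 0.44, 0.16, and 0.06 TPM in CK. NPC4 was higher in Si, with 0.19, 0.25, and 0.35 TPM against 0.06, 0.08, and 0.03 TPM. Among 14 iron genes 1 rose (7.1%, against 8.0% of all genes tested). This was NAS4, a nicotianamine synthase, at 1.21, and at 0.99, uncalled, without Si replicate 1. Of the iron genes 2 rose without CK replicate 1, and 1 fell without CK replicate 3 or after either scaling.

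The falls were led by genes that leaves switch on when sugar is short, in darkness or late in the night. Of 26 sugar starvation genes, 14 fell and 2 rose (median -1.07); after median-of-ratios scaling 19 fell and 1 rose, with a median of -1.36. ASN1, the dark-induced asparagine synthetase, had 68.8, 126, and 215 TPM in Si, against 1541, 1808, and 2104 TPM in CK (log2 fold change -3.86 ± 0.29 SE, adjusted p = 6.8e-08). SEN1, a senescence and darkness marker, had 590.2, 948, and 1073 TPM in Si, against 5232, 6603, and 5591 TPM in CK (log2 fold change -2.77 ± 0.28 SE, adjusted p = 1.1e-06). In both genes Si replicate 1 was lowest, and every Si sample was far below every CK sample. MIOX4, a myo-inositol oxygenase, had 0.69, 1.49, and 0.58 TPM in Si, against 31.8, 54.1, and 53.9 TPM in CK (log2 fold change -4.62 ± 0.20 SE, adjusted p = 1.2e-09). GAT1_2.1, a class I glutamine amidotransferase-like gene, had 6.82, 16.4, and 15.3 TPM in Si, against 119, 157, and 169 TPM in CK (log2 fold change -3.50 ± 0.32 SE, adjusted p = 4e-07), and UMAMIT33, of a family of amino acid exporters, had 3.82, 10.3, and 12.4 TPM in Si, against 103, 114, and 118 TPM in CK (log2 fold change -3.64 ± 0.30 SE, adjusted p = 1.6e-07). The groups were widely separated in each. BZIP53 and BZIP11, transcription factors tied to the low-sugar response, were the 2 rises, at 1.28 and 1.77.

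Genes for the breakdown of branched-chain amino acids, which gives leaf mitochondria fuel when carbohydrate is missing, had lower transcript levels, which fell in 10 of 18 genes and rose in 1 (median -1.31, -1.60 after median-of-ratios scaling with the same counts, and no rise after quantile normalization). BCAT2, the transaminase of the first step, had 45.5, 85.8, and 103 TPM in Si, against 368, 518, and 549 TPM in CK (log2 fold change -2.66 ± 0.24 SE, adjusted p = 3.7e-07). MCCA, a subunit of methylcrotonyl-CoA carboxylase in leucine breakdown, had 52.3, 76.2, and 105 TPM in Si, against 301, 351, and 381 TPM in CK (log2 fold change -2.18 ± 0.17 SE, adjusted p = 1.2e-07). Genes for both first-enzyme subunits of the ketoacid dehydrogenase fell too, BCKDH-E1A1 with 90.4, 117, and 163 TPM in Si, against 406, 481, and 523 TPM in CK (log2 fold change -1.95 ± 0.19 SE, adjusted p = 6.7e-07) and BCKDH-E1B2 by 1.92 on the log2 scale. As with ASN1, Si replicate 1 was the lowest sample in these genes. BCKDH-E1A2, a second copy of the first of these subunits, rose by 1.31. Sugar transport genes did not fall with them, and 1 of 11 rose (9.1%, against 8.0% of all genes tested). This was SWEET17, a vacuolar fructose transporter, with 16.6, 19.5, and 16.3 TPM in Si, against 5.21, 4.97, and 5.28 TPM in CK (log2 fold change 1.58 ± 0.08 SE, adjusted p = 4.1e-09). Of 27 starch genes 1 rose (3.7%), APL3, a subunit of ADP-glucose pyrophosphorylase, by 1.17. In this list 1 fell without CK replicate 3 or Si replicate 3, and after either scaling none rose and 1 fell.

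Low-oxygen genes as a list lay near the median of all genes, although AT1G19530 is a member: 2 of 21 fell, 1 rose (2 without CK replicate 2), and the median was 0.10 (-0.15 after median-of-ratios scaling). The other fall was AT4G27450 at -1.34, and the rise was HB1, a hemoglobin, at 1.44. Clock and flowering time genes fell in 3 of 20 cases and in 6 after median-of-ratios scaling, with no rises (median -0.34). PRR7, a repressor of the morning loop, had 56.2, 59.5, and 51.2 TPM in Si, against 172, 159, and 192 TPM in CK (log2 fold change -1.63 ± 0.08 SE, adjusted p = 1.7e-09), and LNK2, a light-induced activator of evening genes, had 13.8, 14.2, and 11.2 TPM in Si, against 38.9, 37.7, and 38.3 TPM in CK (log2 fold change -1.48 ± 0.09 SE, adjusted p = 1.7e-08). LNK1 fell by 1.12, and by 0.89, uncalled, without Si replicate 3. No harvest hour is given in the sources used here. Among the remaining clock genes, given after their values were seen, CCA1, which peaks at dawn, was at -0.58, TOC1, which peaks at dusk, at -0.27, and GI at -0.76, all uncalled.

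**Figure D4:**
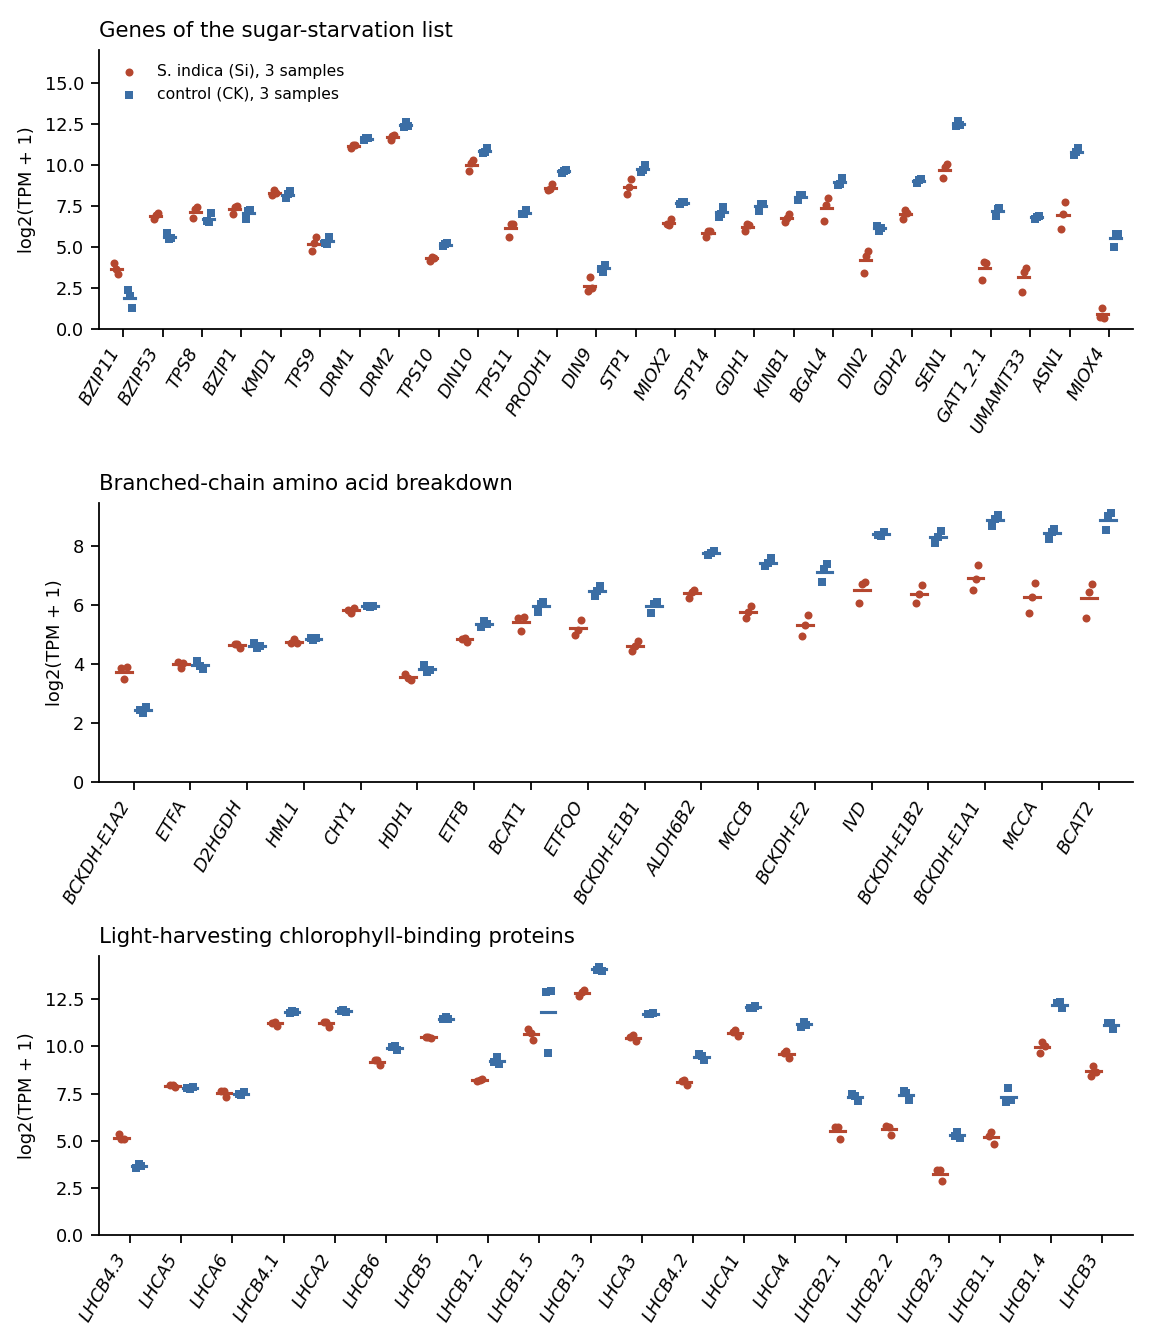
The sugar starvation, branched-chain amino acid, and light-harvesting lists by sample at 22°C. Each point is 1 sample on the scale of log2(TPM + 1), with the 3 Si samples (circles) left of the 3 CK samples (squares) for each gene and a bar at the group mean. ASN1 lies between 68.8 and 215 TPM in Si and between 1541 and 2104 TPM in CK.

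Among photosynthesis genes the falls were concentrated in light harvesting, the antenna proteins that bind chlorophyll. Of 20 LHC genes, 12 fell and 1 rose (median -1.26, -1.56 after median-of-ratios scaling). The summed level of the list was 21801, 23524, and 21674 TPM in Si, against 54613, 51738, and 53419.9 TPM in CK. LHCB3, of the trimer next to photosystem II, had 349, 497, and 391 TPM in Si, against 2374, 2436, and 1949 TPM in CK (log2 fold change -2.46 ± 0.12 SE, adjusted p = 2.3e-09). LHCB1.3, the most abundant antenna transcript among the named genes, had 6504, 7483, and 8245 TPM in Si, against 16909.8, 19021, and 16275 TPM in CK (log2 fold change -1.24 ± 0.09 SE, adjusted p = 4.4e-08). LHCB1.4 had 805, 1194, and 1043 TPM in Si, against 4966, 5229, and 4161 TPM in CK (log2 fold change -2.25 ± 0.19 SE, adjusted p = 1.9e-07), and the antenna genes of photosystem I LHCA1 and LHCA3 fell to 1709 and 1402 TPM in Si, against 4305 and 3385 TPM in CK. LHCB4.3, a form known to be induced by strong light, was the rise, at 1.5. AT2G08665, a long noncoding RNA called among the falls, overlaps LHCB1.5 on the other strand. The pair cannot be read apart: LHCB1.5 had 1911, 1677, and 1315 TPM in Si, against 7422, 802, and 7922 TPM in CK (-1.16, uncalled, and -2.25, called, without CK replicate 2), and AT2G08665 had 224, 1127, and 635 TPM in Si, against 1221, 8883, and 1078 TPM in CK, so that CK replicate 2 was low in one and high in the other, while their sum was 2135, 2805, and 1951 TPM in Si, against 8642, 9685, and 8999.8 TPM in CK; the fall of -2.06 for AT2G08665 is lost without Si replicate 1 (-1.42), Si replicate 3 (-2.17), or CK replicate 2 (-1.08).

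Genes of the reaction centres and carbon fixation were uncalled. Of 30 photosystem and electron transport genes none was called, but 2 fell after median-of-ratios scaling and 1 without CK replicate 3, Si replicate 1, or Si replicate 2, with a median of -0.33 as deposited, -0.63 after median-of-ratios scaling, and 0.01 after quantile normalization, which turns the sign. PSBR, a small subunit of photosystem II, had 10958, 11241, and 10117 TPM in Si, against 14042, 13160.4, and 13576 TPM in CK (log2 fold change -0.34 ± 0.06 SE, adjusted p = 0.00033). None of 29 Calvin-Benson and photorespiration genes was called either (1 fell after median-of-ratios scaling), with a median of 0.05 as deposited, -0.25 after median-of-ratios scaling, and 0.24 after quantile normalization, so their direction depends on the scaling. RBCS1A, the main small subunit gene of Rubisco, had 18757, 17595, and 19374 TPM in Si, against 15207, 16871, and 16255 TPM in CK (log2 fold change 0.21 ± 0.06 SE, adjusted p = 0.0065). Of 21 chlorophyll genes 2 fell and 1 rose, and 1 fell without CK replicate 1 or Si replicate 3. CRD1, a cyclase of chlorophyll synthesis, had 261, 263, and 240.4 TPM in Si, against 523, 664, and 587 TPM in CK (log2 fold change -1.21 ± 0.08 SE, adjusted p = 3.1e-08), and CAO, which makes the chlorophyll b of the antennae, fell by 1.01, but by 0.92 without Si replicate 3 and by 0.97 without CK replicate 1, both short of the threshold. GLK1, a transcription factor that activates antenna genes, rose, with 50.2, 51.1, and 40.02 TPM in Si, against 24.9, 15.5, and 16.8 TPM in CK (log2 fold change 1.28 ± 0.17 SE, adjusted p = 1.2e-05); after median-of-ratios scaling it was at 0.9973, uncalled.

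DNA replication genes rose moderately. Of 28 genes, 11 rose and none fell (median 0.84; 8 called and a median of 0.69 after median-of-ratios scaling, and 3 called and a median of 0.46 after quantile normalization). PCNA1, the sliding clamp of the polymerases, had 8.94, 8.49, and 6.21 TPM in Si, against 1.94, 2.42, and 0.93 TPM in CK (log2 fold change 1.71 ± 0.20 SE, adjusted p = 3.8e-06). RNR1, the large subunit of ribonucleotide reductase, had 22, 20.4, and 21.1 TPM in Si, against 7.85, 6.70, and 6.83 TPM in CK (log2 fold change 1.45 ± 0.09 SE, adjusted p = 1e-08), and CDT1A, which loads the replicative helicase, rose by 1.38. In the helicase itself, MCM2, MCM3, MCM5, MCM6, and MCM7 rose by 1.24, 1.24, 1.32, 1.32, and 1.2. MCM4 was at 0.98 and so just short of the threshold, which it passed without Si replicate 2 (1.07) or CK replicate 1 (1.03). MCM5 had 8.13, 6.99, and 8.29 TPM in Si, against 2.54, 2.71, and 2.31 TPM in CK, and the samples of each group were close. E2F factors switch on S-phase genes, and a short E2F box (TTTCCCGC, TTTGGCGC, TTTGCCGC, or TTTCGCGC, either strand; TTTGCCGC can overlap a GCC-box) was found in 10 of 28 promoters of replication genes (35.7%), against 278 of 19760 promoters of genes tested (1.41%) and 30 of 1593 promoters of called rises (1.88%). Holders include genes that were not called, such as MCM4 and ORC2, a subunit of the origin recognition complex, which was at 0.71. The sequences of MCM5 and MCM6 show it in capitals, 19 and 46 bases before the start.
MCM5, chr2:3527501-3527750, minus strand: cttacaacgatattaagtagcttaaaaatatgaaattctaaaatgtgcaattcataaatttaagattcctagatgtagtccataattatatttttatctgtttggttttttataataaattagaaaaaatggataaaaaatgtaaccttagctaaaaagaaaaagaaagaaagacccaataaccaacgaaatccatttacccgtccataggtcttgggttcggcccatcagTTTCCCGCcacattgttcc
MCM6, chr5:18010668-18010917, minus strand: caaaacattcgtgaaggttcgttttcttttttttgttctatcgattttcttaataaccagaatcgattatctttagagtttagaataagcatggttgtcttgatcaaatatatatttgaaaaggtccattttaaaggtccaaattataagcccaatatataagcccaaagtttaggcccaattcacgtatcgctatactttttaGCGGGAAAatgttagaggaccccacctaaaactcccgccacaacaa

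Genes of other cell cycle phases gave few calls. Of 40 cell cycle genes 5 rose (12.5%, against 8.0% of all genes tested), with a median of 0.67. After median-of-ratios scaling 1 of the 40 was called, against 987 rises among all 20044 genes. None was called after quantile normalization, against 785 rises among all genes. Leaving out CK replicate 1 gave 8 rises and leaving out CK replicate 3 gave 2. CDC20.1, an activator of the anaphase-promoting complex, rose by 1.37 and CYCD1;1, a G1 cyclin, by 1.2. AUR2 and CYCA3;2 rose by 1.09 and 1.04, and by 0.93 and 0.90, uncalled, without CK replicate 3. Of 17 histone genes 3 rose (median 0.60; 1 called after median-of-ratios scaling, 6 without CK replicate 2, and 5 without Si replicate 3). HTR13, a histone H3, had 13.8, 17.5, and 19.3 TPM in Si, against 4.58, 5.49, and 4.05 TPM in CK (log2 fold change 1.64 ± 0.17 SE, adjusted p = 1.2e-06). Leaf growth regulators rose in 2 of 19 cases (10.5%, against 8.0% of all genes tested) and in none after either scaling. The rises were TCP10 by 1.14, and TCP3 by 1.02, which was uncalled without Si replicate 2 (0.96) or CK replicate 3 (0.86). None of 14 stomatal genes was called.

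The secretory pathway rose in its chaperones, with 6 of 13 ER chaperone genes called and none falling (median 0.74; 3 called after either scaling). BIP2 had 86.3, 66.7, and 59.5 TPM in Si, against 24.2, 20.4, and 17.04 TPM in CK (log2 fold change 1.73 ± 0.14 SE, adjusted p = 1.2e-07) and BIP1 had 119, 100.3, and 95.8 TPM in Si, against 44.6, 30.6, and 29.8 TPM in CK (log2 fold change 1.58 ± 0.13 SE, adjusted p = 2.1e-07); these near-identical Hsp70 chaperones of the ER may share reads. CNX1, the lectin chaperone calnexin, rose by 1.49 and ERDJ3B, a co-chaperone, by 1.17. Genes of heat shock proteins and heat shock factors rose in 4 of 20 cases, 2 without CK replicate 2, 1 after median-of-ratios scaling, and none after quantile normalization. HSFB2A, a repressive heat shock factor, had 15.4, 20.8, and 18 TPM in Si, against 6.77, 6.39, and 7.48 TPM in CK (log2 fold change 1.27 ± 0.22 SE, adjusted p = 0.0002). HSFB1 rose by 1.25 (0.91, uncalled, without Si replicate 2), HSFB2B by 1.06 (0.96, uncalled, without CK replicate 2), and HSP23.5 by 1.43, uncalled without Si replicate 1 (1.09), CK replicate 2 (1.05), or CK replicate 3 (1.21).

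Cell wall loosening genes moved both ways. Of 33 expansin, xyloglucan endotransglucosylase, and cellulose synthase genes, 11 rose and 4 fell (median 0.70; 10 and 4 after median-of-ratios scaling). XTH7 had 164, 71.2, and 112 TPM in Si, against 18.4, 9.10, and 9.87 TPM in CK (log2 fold change 3.1 ± 0.26 SE, adjusted p = 1.6e-07) and XTH8 had 20.21, 16.4, and 19.7 TPM in Si, against 3.41, 1.97, and 1.52 TPM in CK (log2 fold change 2.62 ± 0.18 SE, adjusted p = 2.9e-08). XTH24, an enzyme of the same family, had 173, 181, and 157 TPM in Si, against 1028, 766, and 763 TPM in CK (log2 fold change -2.31 ± 0.19 SE, adjusted p = 1.6e-07). So members of 1 enzyme family that act on the same polymer rose and fell by several fold, with no overlap in any of the 3 genes. EXPA5, an expansin, rose by 2.01. EXO, a gene of brassinosteroid-promoted leaf growth, had 118, 153, and 363 TPM in Si, against 74.2, 42.2, and 60.1 TPM in CK (log2 fold change 1.69 ± 0.34 SE, adjusted p = 0.00064), with Si replicate 3 above the other Si samples. Cuticle genes rose in 9 of 19 cases with no falls (median 0.92; 5 called after either scaling). KCS1, an elongase of wax precursors, had 9.03, 8.17, and 8.74 TPM in Si, against 2.02, 1.1, and 0.59 TPM in CK (log2 fold change 2.16 ± 0.21 SE, adjusted p = 8e-07), and CER1, which makes wax alkanes, had 4.65, 3.86, and 3.70 TPM in Si, against 0.33, 0.51, and 0.45 TPM in CK (log2 fold change 1.82 ± 0.16 SE, adjusted p = 2.1e-07). CYP86A2 and BDG, of cutin synthesis, rose by 1.72 and 1.61.

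Other growth hormones contributed single genes. Of 17 auxin response genes, 6 rose and 1 fell (median 0.80; 3 and 1 after either scaling). The fall was GH3.5 at -1.02, uncalled without CK replicate 2 (-0.98), Si replicate 1 (-0.98), or Si replicate 3 (-0.9986). IAA19, an auxin-induced repressor of auxin signalling, had 3.57, 4.91, and 3.76 TPM in Si, against 0.44, 0.66, and 0.25 TPM in CK (log2 fold change 1.81 ± 0.13 SE, adjusted p = 4.6e-08), and IAA3 had 43.9, 46.6, and 78.9 TPM in Si, against 15.8, 13.3, and 16.3 TPM in CK (log2 fold change 1.79 ± 0.20 SE, adjusted p = 2.8e-06). SAUR24 and GH3.3, an enzyme that conjugates auxin to amino acids, rose by 1.54 and 1.14. Of 15 gibberellin genes 2 rose (13.3%, against 8.0% of all genes tested), the DELLA repressors RGL3 (1.33) and RGL1 (1.23), and 4 did without Si replicate 2. After quantile normalization none rose and 1 fell. RGL3 is known to be JA-induced and to bind JAZ proteins. Of 17 abscisic acid and cold genes, 2 rose (11.8%, against 8.0% of all genes tested) and 1 fell (2 after quantile normalization). CYP707A3, which breaks abscisic acid down, had 12.3, 12.4, and 17.82 TPM in Si, against 0.89, 0.94, and 1.5 TPM in CK (log2 fold change 2.84 ± 0.30 SE, adjusted p = 1.9e-06), and RD29A rose by 1.69. The fall was RAB18, a dehydrin induced by abscisic acid, with 70.7, 84.9, and 71.8 TPM in Si, against 170.5, 143, and 176 TPM in CK (log2 fold change -1.09 ± 0.10 SE, adjusted p = 6.3e-07). None of 11 brassinosteroid genes was called. CPD, of brassinosteroid synthesis, was at -0.67, and BES1, a transcription factor of its signalling, at 0.9986; BES1 passed the threshold without CK replicate 1 (1.05) or CK replicate 3 (1.03), and without Si replicate 2 (1.1). None of 8 cytokinin response genes was called (median -0.29), and 1 fell without CK replicate 3 or after quantile normalization.

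Thermomorphogenesis genes, with PIF4 at their centre, had 1 rise in 12 at 22°C (8.3%, against 8.0% of all genes tested) and none after either scaling. PIF4 had 33.1, 35.5, and 26.5 TPM in Si, against 50.3, 53.0, and 56.2 TPM in CK (log2 fold change -0.74 ± 0.09 SE, adjusted p = 1e-05), so the groups did not overlap and the change was below the threshold; it was -1.03 after median-of-ratios scaling, which passes it. ATHB2, a homeodomain factor of shade growth, rose by 1.18, and by 0.95, uncalled, without Si replicate 2. Aquaporins of the plasma membrane stayed below the threshold in the 13 genes tested, with 2 falls after median-of-ratios scaling and 1 after quantile normalization. PIP1;4 was highest at 0.95 and PIP2;3 lowest at -0.88 (-1.07, called, without CK replicate 1), and PIP1;2 had 611, 584, and 564 TPM in Si, against 698, 711, and 687 TPM in CK. UBQ5, a ubiquitin gene that the study used as a qPCR standard, had 353, 327, and 378 TPM in Si, against 218, 229.8, and 212 TPM in CK (log2 fold change 0.68 ± 0.07 SE, adjusted p = 7.2e-07), 0.38 after median-of-ratios scaling.

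A few abundant transcripts of less known role also rose. PRXR1, a class III peroxidase, had 1231, 1022, and 1143 TPM in Si, against 408, 319, and 299.8 TPM in CK (log2 fold change 1.73 ± 0.10 SE, adjusted p = 8.1e-09). GRP-3, a glycine-rich wall protein that binds the kinase WAK1, had 1710.2, 1635, and 1969 TPM in Si, against 792, 578, and 613 TPM in CK (log2 fold change 1.43 ± 0.13 SE, adjusted p = 4.5e-07), and WAK1, a wall-associated kinase, rose by 1.5. AT1G15125, a gene of the SABATH methyltransferase family, had 903, 932, and 989 TPM in Si, against 259, 343, and 278 TPM in CK (log2 fold change 1.69 ± 0.17 SE, adjusted p = 1.3e-06). None of these had overlapping groups, which also held for 1584 of all 1603 called rises.

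Some genes given here as rises or falls were not called on another scale. AOC1, APL3, AT4G35160, ATHB2, AUR2, CYCA3;2, CYCD1;1, ERDJ3B, G3PP1, GH3.3, HSFB1, HSFB2A, HSFB2B, ILL6, JAV1, MCM7, MYC4, SDI1, TCP10, TCP3, ZAT10, ZAT12, and bHLH093 were uncalled after both median-of-ratios scaling and quantile normalization. After median-of-ratios scaling alone this held for AOC2, BZIP53, and GLK1. After quantile normalization alone it held for AT2G08665, AT4G01700, AZF3, BCKDH-E1A2, CBP60G, CDC20.1, CHI, CRK20, HSP23.5, LHCA1, LHCA3, MCM2, MCM3, MCM5, MCM6, NAS4, PAP17, PHT1;4, PR5, RGL1, and RGL3.

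The effect of S. indica at 22°C was set against that at 25 and 28°C by interaction terms of the same fit, called on the adjusted p alone; all 3 comparisons use their own Si and CK samples, but both interactions and the calls at 22°C share the samples at 22°C. Lower and higher give the sign of the difference and not its strength, so a gene that fell at 22°C and was lower when warm fell further. Over all genes the effect was lower at 25°C in 1074 genes (5.36%) and higher in 876 (4.37%), and lower at 28°C in 2054 (10.2%) and higher in 1387 (6.92%). This balance depended on the scaling. After median-of-ratios scaling 1120 were lower and 844 higher at 25°C, and 1689 lower and 1624 higher at 28°C. Quantile normalization gave 1084 lower and 1191 higher at 25°C, and 1871 lower and 1687 higher at 28°C. Of the 1603 genes that rose at 22°C, 974 also rose at 25°C and 785 at 28°C. Over all 20044 genes tested, 1891 rose at 25°C and 1593 at 28°C. Among the 1603 the effect was lower in 218 and higher in 68 at 25°C, and lower in 444 and higher in 71 at 28°C. Of the 268 falls, 198 also fell at 25°C and 145 at 28°C, against 540 and 344 falls over all genes tested.

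JA signalling transcripts differed with temperature. The median of the JAZ list was 2.18 at 22°C against 0.15 at 25°C and 0.21 at 28°C; no JAZ gene rose at 25 or 28°C, JAZ3 fell at 25°C (-1.07, adjusted p = 0.00051), and the effect was lower in 6 of 13 genes at each temperature. JAZ9 changed by 2.21 at 22°C, -0.29 at 25°C, and -0.20 at 28°C (interaction at 25°C -2.50, adjusted p = 0.02, and at 28°C -2.42, adjusted p = 0.014). MYC2 gave 3.24, -0.14, and -0.06 in the same order (interaction at 25°C -3.38, adjusted p = 0.024, and at 28°C -3.30, adjusted p = 0.016), and CYP94B1 gave 1.44, -0.68, and -0.95, opposite in sign (interaction at 25°C -2.12, adjusted p = 0.0079, and at 28°C -2.39, adjusted p = 0.002). The MYC2 mean was 12.4 TPM in Si and 14.6 TPM in CK at 25°C, and 17.1 TPM in Si and 17.5 TPM in CK at 28°C, whereas at 22°C it was 59.5 TPM in Si against 5.87 TPM in CK. Single libraries at 22°C decided some of these calls: the interaction of MYC2 at 25°C had an adjusted p of 0.062 and that of ORA59 at both temperatures one of up to 0.068 when a library was left out, and that of ERF2 reached 0.067 at 25°C. Among JAZ genes, the call at 28°C was lost in 6 of 6 such fits for JAZ1, 5 for JAZ13, 4 for JAZ7, and 2 for JAZ2. At 25°C it was lost in 5 for JAZ3, 3 for JAZ7, and 1 for JAZ2. JAZ6 and JAZ9 kept theirs in every fit. The ERF list had medians of 1.21, -0.02, and 0.23 from 22 to 28°C; ERF2 gave 3.09, 0.19, and 0.50 (interaction at 25°C -2.90, adjusted p = 0.029). For defensins the median of their list was 1.62, 1.57, and 1.66, and PDF1.2 gave 3.92, 2.67, and 2.94, with no interaction called (adjusted p = 0.35 at 25°C and 0.45 at 28°C), though ORA59 was lower at both (-1.11, adjusted p = 0.028, and -1.02, adjusted p = 0.027).

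**Figure D5:**
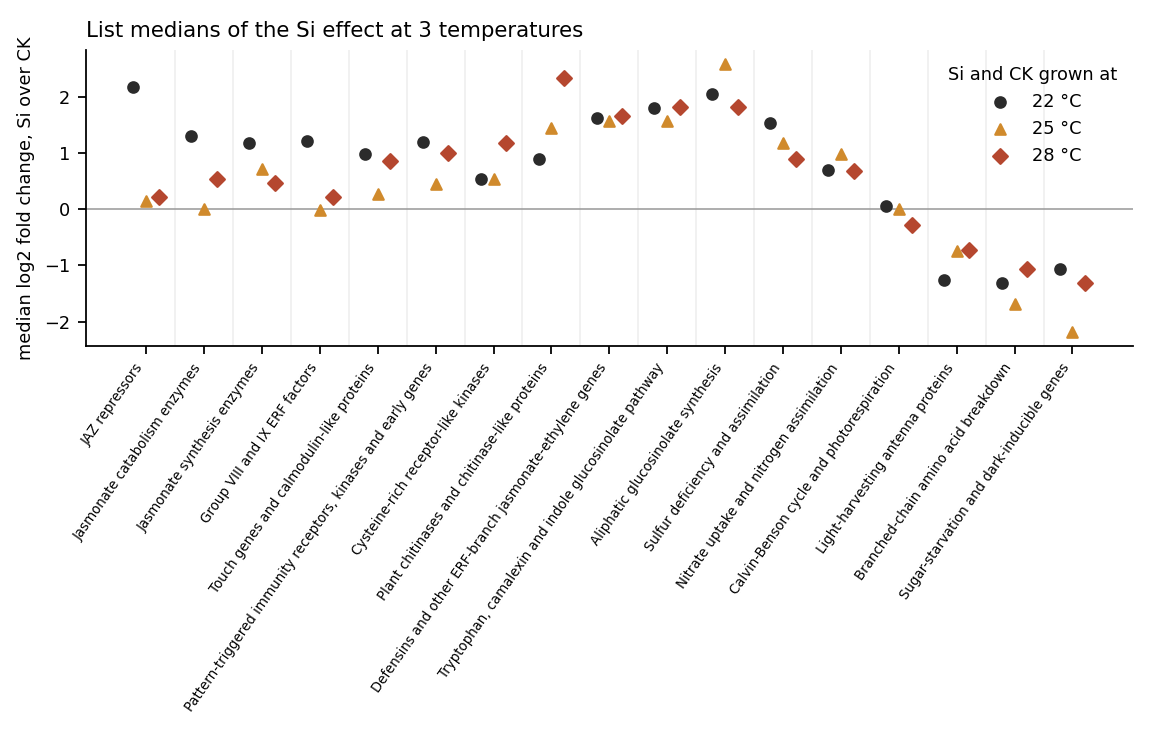
Median log2 fold change of Si over CK for 17 gene lists at 3 temperatures. Each point is the median of the members tested, at 22°C (circles), 25°C (triangles), and 28°C (diamonds). The JAZ list lies at 2.18 at 22°C, 0.15 at 25°C, and 0.21 at 28°C, while the aliphatic glucosinolate list stays at 1.82 or above.

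Other lists gave other orders of medians. The medians of aliphatic glucosinolate genes were 2.05, 2.59, and 1.82 from 22 to 28°C, those of the tryptophan and indolic list 1.81, 1.57, and 1.82, and those of the chitinases 0.89, 1.44, and 2.34, with a higher effect at 28°C in 6 of 13 chitinase genes. CHIB gave 1.54, 3.08, and 3.63 (interaction at 28°C 2.08, adjusted p = 0.0021). Sulfate assimilation had medians of 1.54, 1.18, and 0.89, and the effect was lower at 28°C in 10 of 17 genes, among them APR3 (-0.87, adjusted p = 0.0021). The medians of sugar starvation genes were -1.07, -2.19, and -1.32, and the effect was lower in 17 of 26 genes at 25°C. ASN1 gave -3.86, -7.09, and -5.58 (interaction at 25°C -3.23, adjusted p = 0.00058, and at 28°C -1.72, adjusted p = 0.01). MIOX4 went the other way, with -4.62, -3.71, and -1.54 (interaction at 28°C 3.08, adjusted p = 2.3e-05). The LHC list had medians of -1.26, -0.74, and -0.73; LHCB1.1 gave -2.15, -0.65, and -0.48 (interaction at 25°C 1.5, adjusted p = 0.0034, and at 28°C 1.67, adjusted p = 0.00077), whereas the effect on LHCB1.4 was lower (interaction at 25°C -1.58, adjusted p = 0.0032, and at 28°C -1.36, adjusted p = 0.0034). Replication genes kept medians of 0.84, 1.16, and 0.89, with MCM5 higher at 25°C (0.58, adjusted p = 0.006).

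Among the named genes called at 22°C, those with the largest interactions included EXO, which gave 1.69 at 22°C, -2.63 at 25°C, and -1.91 at 28°C, with adjusted p = 9.4e-06 and 0.00026 at the warmer temperatures (interaction at 25°C -4.32, adjusted p = 0.00025, and at 28°C -3.60, adjusted p = 0.0003). JAZ7 gave 4.24, -1.07, and -0.40 (interaction at 25°C -5.31, adjusted p = 0.026, and at 28°C -4.63, adjusted p = 0.03); these reached an adjusted p of 0.057 and 0.064 when a library at 22°C was left out. AT4G29030, a gene annotated as a putative membrane lipoprotein, gave 2.55, 4.38, and 2.87 (interaction at 25°C 1.83, adjusted p = 0.0019), and WAK1 gave 1.5, 3.64, and 4.01 (interaction at 28°C 2.51, adjusted p = 0.012). The remaining genes that the rule names for their interactions, AT1G07901, U2.5, AT1G06463, AT2G04955, AT1G08747, and AT5G09845, are short, listed at 0 in whole groups, or overlap another gene, and no value is given for them.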

How the data were processed

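RNA was sequenced from aboveground parts of Arabidopsis seedlings, with 3 samples in each of 6 groups (Si or CK at 22, 25, or 28°C). The authors deposited 1 table of gene TPM, transcript levels already scaled for gene length and to a fixed sum per library. The sources used here name HISAT2 and StringTie (labels) and RSEM (methods of the study) for it. TPM keeps no read depth, so no counting error can be given, and a gene without signal is described as listed at 0. Every sample column was used (0 left out).

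Values were tested as log2(TPM + 1) with limma 3.58.1 in R 4.3.3 (variance trend, 6 group means, 12 residual degrees of freedom, Benjamini-Hochberg adjustment over 20044 genes), and the fit was tested on simulated data first. Genes counted as called at an adjusted p of at most 0.05 and a log2 fold change beyond 1 in either direction. The labels do not say that samples came from separate plates, so p-values measure the spread between these samples. Alternatives were pseudocounts of 0.1 and 0.5, other filters, median-of-ratios scaling, quantile normalization, a replicate block, a fit of the 6 samples at 22°C, and leaving out each sample at 22°C. Fold changes of genes with low TPM are understated on this scale.

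Genes were named by rule: the 12 largest rises and falls without overlap of the groups (at least 200 bases long and not listed at 0 throughout a group), the 6 largest of each in TPM, up to 4 called genes per list (or the 2 most abundant), genes that the study discusses, the 4 largest interactions each way, those nearest the threshold, and whole families of 13 or fewer. Genes outside it were chosen after their values were seen. The members and the 51 lists were chosen with earlier results of these data known. The table's gene lengths matched a TAIR10.1 transcript for 32374 of 33039 genes, so upstream windows of 250 bases were read from that RefSeq genome.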

Additional observations from a re-analysis of the deposited data

Results flagged for a closer look

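Of the genes given with values, 65 had a Si effect at 25°C that differed from that at 22°C and 79 had one at 28°C, by the interaction term of limma at an adjusted p of at most 0.05. The effect was lower in 52 and higher in 13 of them at 25°C, and lower in 61 and higher in 18 at 28°C. Each difference is the log2 fold change of Si over CK at the warmer temperature minus that at 22°C, so a gene that fell at 22°C and has a positive value fell less or was higher in Si when warm. A gene that fell at 22°C and has a negative value, such as ASN1, fell further when warm. The lower effects thus hold both weaker rises and deeper falls. The samples at 22°C enter both differences and also set which genes were named. When single libraries at 22°C were left out in turn, 27 of the genes at 25°C and 25 of those at 28°C missed the threshold at least once. AT2G08665 shares its bases with LHCB1.5, so its value is uncertain.

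Among JA synthesis, catabolism, signalling, and output genes, the effect at 25°C was lower in JAZ7 (-5.31), MYC2 (-3.38), CYP94C1 (-2.93), JAZ9 (-2.5), JAZ1 (-2.5), JAZ2 (-2.27), CYP94B1 (-2.12), OPCL1 (-2.08), JOX2 (-1.7), JAZ6 (-1.69), ILL6 (-1.46), CLH1 (-1.09), and JAZ3 (-1.04). At 28°C it was lower in JAZ7 (-4.63), MYC2 (-3.3), CYP94C1 (-2.59), JAZ9 (-2.42), CYP94B1 (-2.39), VSP2 (-2.2), OPCL1 (-2.07), JAZ2 (-2.01), JAZ1 (-1.77), AOS (-1.76), ILL6 (-1.72), JAZ6 (-1.69), JAZ13 (-1.61), CLH1 (-1.55), JOX2 (-1.46), OPR3 (-1.18), and AOC2 (-0.68), and higher in AOC4 (0.60) and JAM3 (0.27). Among defensin, ERF, and ET genes, the effect at 25°C was lower in ERF6 (-3.44), ERF2 (-2.9), ERF13 (-2.17), and ORA59 (-1.11), and higher in CHIB (1.54). The effect at 28°C was lower in ERF2 (-2.59), ERF13 (-1.92), and ORA59 (-1.02), and higher in CHIB (2.08). Among ZAT, WRKY, and calcium-related genes, the effect at 25°C was lower in WRKY33 (-2.44), TCH3 (-2.43), WRKY18 (-1.75), TCH2 (-1.53), and AZF3 (-1.1). In the same set, that at 28°C was lower in WRKY18 (-1.32) and TCH2 (-1.21). Among pattern-triggered immunity, SA, receptor kinase, and chitinase genes, the effect at 25°C was lower in SZF1 (-2.55), CBP60G (-1.43), CRK10 (-1.05), and RBOHD (-0.89), and higher in AT2G43590 (0.87). At 28°C it was lower in RBOHD (-0.87), and higher in AT4G01700 (2.01), CRK20 (1.52), and ICS1 (0.85). Among tryptophan, glucosinolate, ER body, and flavonoid genes, the effect at 25°C was lower in NAI1 (-1.47), and higher in PAP2 (1.41) and NAI2 (0.35). The effect at 28°C was lower in NAI1 (-1.93), IPMI1 (-1.66), GSTF11 (-1.54), GSTU24 (-1.3), and PYK10 (-0.50), and higher in PAP2 (1.87), TSB1 (0.39), and NAI2 (0.29). Among sulfur, nitrogen, phosphate, and iron genes, the effect at 25°C was lower in APS3 (-1.35) and SDI1 (-0.74). In the same set, that at 28°C was lower in APS3 (-1.48), SDI1 (-1.38), SPX1 (-1.29), UPM1 (-1.0), NIR1 (-0.96), LSU2 (-0.91), APR2 (-0.90), APR3 (-0.87), APR1 (-0.73), and GLT1 (-0.70), and higher in GLN1;1 (1.04). Among sugar starvation, branched-chain amino acid, sugar transport, and starch genes, the effect at 25°C was lower in ASN1 (-3.23), GAT1_2.1 (-2.68), SEN1 (-2.39), UMAMIT33 (-2.05), BCAT2 (-1.73), MCCA (-1.5), BZIP53 (-1.21), and BCKDH-E1A1 (-1.2), and higher in SWEET17 (0.58). At 28°C it was lower in ASN1 (-1.72), GAT1_2.1 (-1.51), and BZIP53 (-1.38), and higher in MIOX4 (3.08).

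Among photosynthesis and chlorophyll genes, the effect at 25°C was lower in LHCB1.4 (-1.58), and higher in LHCB1.1 (1.5) and CRD1 (0.41). The effect at 28°C was lower in LHCB1.4 (-1.36) and RBCS1A (-0.27), and higher in LHCB1.1 (1.67), LHCB3 (1.44), CRD1 (0.78), and CAO (0.53). Among clock and low-oxygen genes, the effect at 25°C was lower in AT4G27450 (-1.08), PRR7 (-0.47), LNK2 (-0.44), and TOC1 (-0.31). In the same set, that at 28°C was higher in CCA1 (0.93). Among replication, cell cycle, and leaf growth genes, the effect at 25°C was higher in PCNA1 (0.93), MCM7 (0.65), and MCM5 (0.58). At 28°C it was lower in TCP10 (-1.02), CYCD1;1 (-0.87), and RNR1 (-0.42). Among chaperone and heat shock factor genes, the effect at 25°C was lower in HSFB2A (-1.26). The effect at 28°C was lower in HSFB2A (-1.08), HSFB2B (-0.81), BIP2 (-0.73), CNX1 (-0.69), and BIP1 (-0.67). Among cell wall, cuticle, and aquaporin genes, the effect at 25°C was lower in XTH24 (-1.14), XTH8 (-0.84), and CYP86A2 (-0.59). In the same set, that at 28°C was lower in XTH8 (-1.96), XTH7 (-1.41), CYP86A2 (-0.99), and PIP1;4 (-0.48). Among growth hormone and thermomorphogenesis genes, the effect at 25°C was lower in CYP707A3 (-2.51), IAA3 (-1.43), and GH3.3 (-0.75). At 28°C it was lower in CYP707A3 (-2.05), IAA3 (-1.4), RAB18 (-1.29), and BES1 (-0.42), and higher in GH3.5 (0.47). Among the remaining genes, the effect at 25°C was lower in AT2G08665 (-6.91), EXO (-4.32), and AT4G36850 (-0.90), and higher in WAK1 (2.15), AT4G29030 (1.83), and UBQ5 (0.48). The effect at 28°C was lower in EXO (-3.6) and APK (-0.47), and higher in WAK1 (2.51).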

How the results depend on the processing

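The 1603 rises became 987 after median-of-ratios scaling, 785 after quantile normalization, and 2612 with a pseudocount of 0.1. The 268 falls became 502 and 475 under the 2 scalings. The share of rises among calls was 85.7%, 66.3%, and 62.3% in this order (as deposited, median-of-ratios, quantile). Without a threshold on the fold change there were 9507 rises and 2138 falls. Of 275 named genes, 23 lost their call after median-of-ratios scaling and 39 after quantile normalization, none of them changing sign, and 4 and 3 gained one. The cause was not tested. A pseudocount of 0.5, other filters, the filter within the 6 samples at 22°C, and the fit of those samples alone kept each count within 1.5 times. With 1 library at 22°C left out, there were 1507 to 1780 rises, 231 to 312 falls, 1248 to 2307 genes with a different effect at 25°C, against 1950 with all samples, and 2621 to 3662 at 28°C, against 3441. The lowest count at 25°C came without CK replicate 2. Counts per list with a library left out were added after the data had been seen.

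The replicate block gave 1605 rises, 268 falls, and 2369 and 3737 genes with a different effect at 25 and 28°C, and ended the call of 2 named genes. Deviations of same-numbered Si and CK samples correlated at 0.088, 0.076, and 0.017 over genes, each higher than with other numbers, yet all under 0.1, and no label ties the numbers to a plate or day, so the samples were not treated as pairs. TPM gives no depth, and genes near 1 TPM are limited by it.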
